A study of Mus musculus with 5 samples.

Results

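The genes described here encode the 5 subunits of NF-kB (Nfkb1, Nfkb2, Rela, Relb and Rel) and 5 regulators that NF-kB induces or that act on it (Nfkbia, Tnfaip3, Tnip1, Bcl3 and Birc3). They were selected by symbol, and all 10 were found among the 54532 gene IDs of the deposited read count table. Each also passed the filter on low counts, which left 16226 genes for testing. The samples were kidneys of male wild-type C57BL/6J mice, 8 weeks old, that had been injected intraperitoneally once a day over 3 days and sampled on day 3. In the DMXAA group (2 libraries) the injection held 10 mg/kg of DMXAA, a small molecule that activates mouse STING, and in the control group (3 libraries) it held vehicle, whose composition is not stated. Each library was bulk RNA of kidney, so fewer cells of a type and less RNA per cell cannot be told apart.

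NF-kB is a family of dimeric transcription factors held in the cytoplasm by inhibitor proteins. In the canonical pathway the IkB kinase complex marks the inhibitor IkBa for degradation, and dimers of RelA with the Nfkb1 product enter the nucleus. In the non-canonical pathway the Nfkb2 product is processed and enters with RelB. Among the genes induced are the inhibitors themselves: IkBa recaptures the dimers, and the ubiquitin-editing enzyme A20 with its partner ABIN-1 shuts off the signal upstream. STING can activate this pathway beside the interferon pathway, which runs through the kinase TBK1. In kidney, NF-kB acts in tubular epithelium and in immune cells during inflammation.

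In these kidneys no subunit or regulator passed edgeR's quasi-likelihood test of DMXAA against vehicle after adjustment over all genes. That test called 0 of the 16226 genes (percent called 0), and without an expression filter it called 34 of 28037 (0.121%), none of them among these 10. DESeq2 called 59 genes (0.378% of those with an adjusted p), again none of the 10. In edgeR 1062 genes had an unadjusted p below 0.05 (6.55%), 1 of the 10 among them. The adjusted p of the 10 genes ran from 0.735 to 0.986. Their estimates were small and mostly negative: 9 of 10 log2 fold changes (DMXAA over vehicle) lay below 0, against 53.1% of all tested genes, and their median was -0.26, against -0.01 over all tested genes. Tnip1, which encodes ABIN-1, had the largest difference and was the only one of the 10 with an unadjusted p below 0.05, and Birc3, which encodes the ubiquitin ligase cIAP2, was the only one with a higher estimate. In 5 of the 10 genes the groups did not overlap in normalised CPM, the read count of a gene scaled to library size, against 26.0% of tested genes. Nfkb2, Rela, Rel and Tnip1 were lower in both DMXAA libraries than in any vehicle library (4 of 10, against 12.3%), and Birc3 was higher in both (1 of 10, against 13.7%). In CPM with no TMM factor (the scaling used for normalised CPM) the same 5 genes stayed apart, against 25.7% of tested genes. On the TPM scale, which divides each count by transcript length and uses no TMM factor, Rela and Rel overlapped. There 3 of the 10 stayed apart, against 25.1% of tested genes. For comparison, the interferon-stimulated gene Rsad2 was at 38.0, 40.3 and 42.3 CPM in vehicle and at 59.5 and 67.3 CPM in DMXAA in the same libraries. Ifi44, another interferon-stimulated gene, was at 16.5, 15.8 and 14.9 CPM and at 26.1 and 35.2 CPM, and Irf7, a transcription factor of the interferon response, at 48.8, 192.6 and 68.4 CPM and at 342.7 and 478 CPM. Both DMXAA libraries were higher in these 3 genes. With the default filter edgeR called none of them (adjusted p 0.535, 0.535 and 0.724 in the order given). Without an expression filter edgeR called all 3 (adjusted p 0.041, 0.0149 and 0.041). DESeq2 called Rsad2 and Ifi44 (adjusted p 0.00105 for each) but not Irf7 (0.544).

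**Figure D1:**
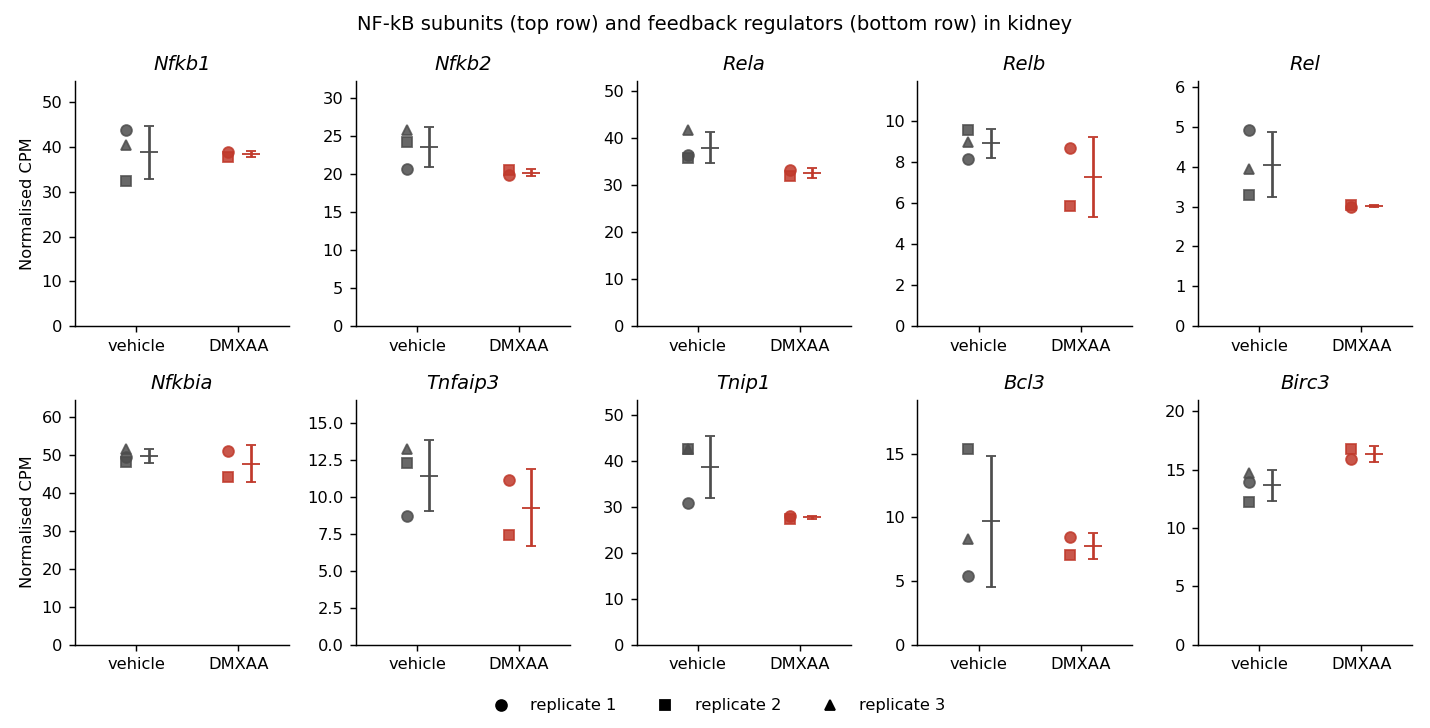
Normalised CPM (vertical axis, starting at 0) of the 5 NF-kB subunit genes in the top row and the 5 regulator genes in the bottom row, for the 3 vehicle (grey) and 2 DMXAA (red) libraries, with marker shape for the replicate number and a bar for the mean and SD of each group. Tnip1 and Rela lie lower in both DMXAA libraries than in any vehicle library, Birc3 lies higher, and Bcl3 spreads from 5.35 to 15.4 CPM within the vehicle group.

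The libraries held 17667490 to 20264228 counts. Kidney markers were present throughout, with 0 of the 17 tubule, podocyte and endothelial marker genes at 0 counts in any library. The summed proximal tubule markers (Lrp2, Slc34a1, Slc5a2 and Slc5a12) were at 5297 to 6564 CPM in vehicle and at 6697 and 7378 CPM in DMXAA, with all 4 higher in the mean and 3 of them higher in both DMXAA libraries than in any vehicle library (against 13.7% of tested genes). All 4 endothelial markers were also higher in the mean (181.9 to 284.7 CPM summed in vehicle, 283.2 and 306.2 CPM in DMXAA), 2 of them, Tie1 and Kdr, without overlap. The podocyte, thick ascending limb, distal tubule and collecting duct markers overlapped in their sums. In that order 1 of 3, 0 of 2, 1 of 2 and 2 of 2 were lower in the mean. Nphs1 and Slc12a1 were higher in both DMXAA libraries than in any vehicle library, and Pvalb was lower in both. The collecting duct gene Aqp2 was at 774, 217 and 292 CPM in vehicle and at 276 and 327 CPM in DMXAA. Of the other lists, the summed immediate-early genes (Fos, Fosb, Jun, Junb, Egr1 and Atf3, which respond quickly to handling and stress) were at 92.5 to 175 CPM in vehicle and at 67.6 and 82.1 CPM in DMXAA, with all 6 lower in the mean and 4 not overlapping (against 12.3% of tested genes). All 6 B cell markers were lower in the mean, at 11.2 to 21.7 CPM summed in vehicle and at 16.5 and 6.47 CPM in DMXAA. The sums overlapped, but 2 of the 6, Ms4a1 and Ighd, were lower without overlap (against 12.3% of tested genes). Ighd was at 0 counts in DMXAA library 1. Of the T and NK cell markers 5 of 6 were lower in the mean (8.38 to 14.7 CPM in vehicle, 6.77 and 10.3 CPM in DMXAA). Only 1 of the 6, Cd3g, was lower without overlap (against 12.3%). All 5 neutrophil markers were lower in the mean (3.89 to 51.1 CPM, and 4.94 and 6.96 CPM), with Ly6g at 0 counts in vehicle library 1 and both DMXAA libraries. Macrophage markers overlapped (159 to 247 CPM, and 187 and 209 CPM). The dendritic cell markers also overlapped in their sum (9.46 to 12.4 CPM, and 7.96 and 10.8 CPM), of which Itgax made up the largest share, but 3 of the 4 were lower in the mean and Flt3 and H2-Ob lower in both DMXAA libraries. Flt3 was at 1.73, 1.48 and 1.33 CPM in vehicle against 0.83 and 0.0995 CPM in DMXAA. H2-Ob was at 2.92, 1.65 and 2.27 CPM against 1.22 and 0.35 CPM. Adipocyte markers summed to 387, 0.40 and 8.15 CPM in vehicle and to 0.17 and 0.35 CPM in DMXAA. Vehicle library 1 thus stood far above the other 4. Both DMXAA sums were below all vehicle sums, that of vehicle library 2 by little. Urothelial markers were at 93.7 CPM in vehicle library 1 against 1.65 to 9.65 CPM in the other 4. Red cell markers were at 67.4 to 254 CPM in vehicle and at 26.4 and 47.7 CPM in DMXAA. All 3 red cell genes were lower without overlap (against 12.3% of tested genes). The part of these cell and handling differences in the values of the NF-kB genes was not tested.

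Per transcript length, the inhibitor gene Nfkbia was the most abundant of the 10 in every library. Taking the longest annotated transcript as the length, it stood at 68.1 ± 6.49 TPM in vehicle (SD, n = 3) and at 66.6 ± 6.30 TPM in DMXAA (SD, n = 2). Rela followed with 30.3 ± 3.78 TPM in vehicle, then Tnip1 with 28.03 ± 3.89 TPM, a pair that lay within each other's spread. Nfkb1 stood at 20.4 ± 4.42 TPM, within the combined spread of Tnip1 and itself. Nfkb2 came next with 13.2 ± 1.35 TPM, above Birc3 with 10.2 ± 1.56 TPM, and the spread of Bcl3 (11.03 ± 5.10 TPM) reached both and also Relb. Relb stood at 5.86 ± 0.17 TPM, and Tnfaip3, which encodes A20, below it at 3.96 ± 0.74 TPM. Rel, the subunit best known from lymphocytes, was the least abundant at 1.18 ± 0.32 TPM, with 54 to 91 counts in a library. With the union of all annotated exons as the length, Nfkb1 moved from rank 4 to rank 6 (8.56 ± 1.84 TPM), since 12061 exonic bases are annotated for it. The first 3 ranks were the same with both lengths. In both groups the 5 regulators together outweighed the 5 subunits in TPM. The regulators summed to 116, 118 and 129 TPM under vehicle and to 118 and 107 TPM under DMXAA. The subunits summed to 74.5, 61.2 and 77.2 TPM and to 65.6 and 63.2 TPM. Of the regulator sums, Nfkbia alone held 71.8, 60.6 and 72.0 TPM under vehicle and 71.1 and 62.2 TPM under DMXAA. In summed CPM the subunits were higher in vehicle library 1 (114 against 108 CPM) and the regulators in the other libraries.

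**Figure D2:**
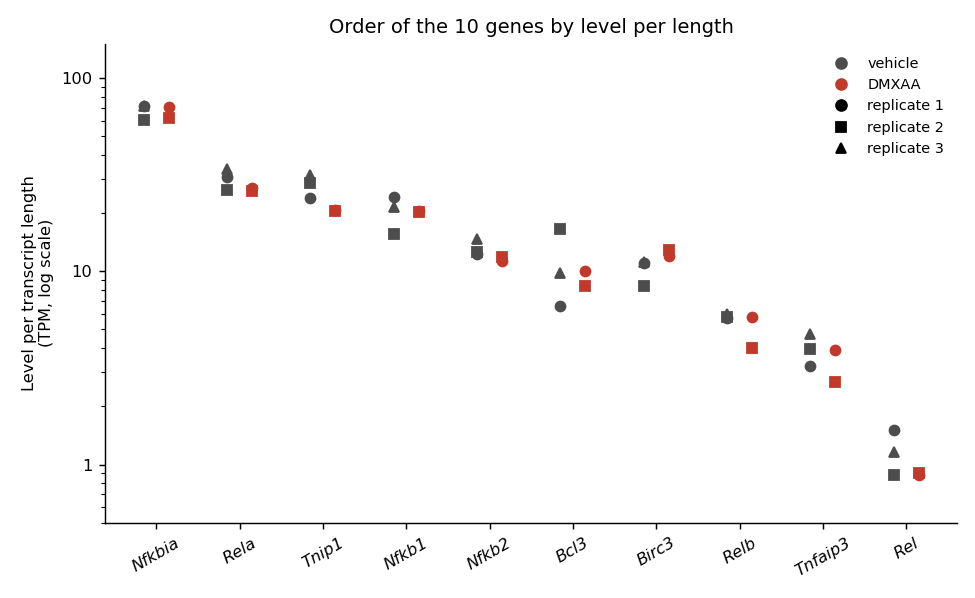
Level per transcript length (TPM on a logarithmic axis, longest transcript as the length) of each of the 10 genes in the 3 vehicle (grey) and 2 DMXAA (red) libraries, ordered by the vehicle mean, with marker shape for the replicate number. Nfkbia is highest in all libraries and Rel lowest, and the 2 groups lie close together for each gene beside the span from Rel (1.18 TPM) to Nfkbia (68.1 TPM).

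Rela encodes the main transactivating subunit of the canonical dimer. It is annotated on chromosome 19 from 5637483 to 5648130 on the plus strand (mm10, as are all positions below). Rela was at 36.4, 35.8 and 41.8 CPM in vehicle and at 33.3 and 31.9 CPM in DMXAA. Both DMXAA libraries lay below all vehicle libraries, by a gap of 2.52 CPM. This gave a log2 fold change of -0.22 (SE 0.11, 95% interval -0.47 to 0.03, adjusted p = 0.749). That interval spans 0.72 to 1.02 times the vehicle level.

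Its canonical partner Nfkb1, whose precursor p105 is processed to p50, is annotated on chromosome 3 from 135584655 to 135691547. Nfkb1 was at 43.8, 32.3 and 40.4 CPM in vehicle and at 38.9 and 37.9 CPM in DMXAA. Both DMXAA values fell inside the vehicle range, so the groups overlapped. Its log2 fold change of -0.02 (SE 0.14) was the nearest to 0 of the 10, and the 95% interval spans 0.78 to 1.24 times the vehicle level. Its sign was positive without vehicle library 1 (0.07), without vehicle library 3 (0.01) and without DMXAA library 2 (0.0035).

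The non-canonical subunits were also lower in the mean. Nfkb2 encodes p100, the precursor of p52 and an inhibitor of RelB, and lies on chromosome 19 from 46304320 to 46312385. It was at 20.7, 24.2 and 25.8 CPM in vehicle and at 19.9 and 20.5 CPM in DMXAA. The groups did not overlap, but the gap was 0.16 CPM, while counting error alone gives vehicle library 1 a 95% Poisson interval of 18.6 to 22.8 CPM. Its estimate was a log2 fold change of -0.22 (SE 0.13, adjusted p = 0.759). Exons of 2 genes on the other strand, Psd and AC114539.1, cover 6.52% and 11.6% of its exonic bases, and reads of these genes cannot be told apart from those of Nfkb2 where the strand was not used.

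Relb, its partner subunit, was at 8.16, 9.55 and 8.98 CPM in vehicle and at 8.66 and 5.87 CPM in DMXAA. Only DMXAA library 2 was low, and DMXAA library 1 lay inside the vehicle range. Its log2 fold change of -0.29 (SE 0.21, adjusted p = 0.794) was -0.59 without DMXAA library 1 and -0.04 without DMXAA library 2. Relb lies on chromosome 7 from 19606217 to 19629438, and Bcl3 on the same chromosome from 19808462 to 19822770.

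Rel encodes c-Rel and lies on chromosome 11 from 23736847 to 23770970. It was at 4.92, 3.30 and 3.94 CPM in vehicle and at 3.00 and 3.03 CPM in DMXAA. The DMXAA libraries were the lowest, by a gap of 0.26 CPM to vehicle library 2. The log2 fold change of -0.43 (SE 0.26, adjusted p = 0.772) was -0.27 without vehicle library 1 and -0.55 without vehicle library 2. Its 95% interval, -1.05 to 0.20, covers a level from 0.48 to 1.15 times that of vehicle.

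Among the regulators, Tnip1 had the clearest difference. ABIN-1 binds ubiquitin chains and works with A20 to limit IkB kinase activity. The gene lies on chromosome 11 from 54910785 to 54962917. It was at 30.9, 42.7 and 42.6 CPM in vehicle and at 28.02 and 27.5 CPM in DMXAA. Both DMXAA libraries were below every vehicle library, and vehicle library 1 lay nearer to them than to the other 2 vehicle libraries. In the mean DMXAA stood at 71.6% of vehicle. This corresponds to a fitted log2 fold change of -0.48 (SE 0.16, 95% interval -0.86 to -0.10), with an unadjusted p of 0.0197 in edgeR and 0.0127 in DESeq2 and adjusted p of 0.735 and 0.489. An unadjusted p below 0.05 with a lower estimate was met by 2.65% of tested genes. Without vehicle library 1, the library rich in adipocyte and urothelial transcripts, the log2 fold change was -0.63 and the adjusted p 0.20 in edgeR. Without each other library in turn it ran from -0.49 to -0.40, with an unadjusted p of 0.0517 to 0.0952 in edgeR.

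The 5 tested genes with the most similar pattern to Tnip1 over the 5 libraries were found by the root mean square difference in log2 CPM, each gene centred on its own mean. They were Slc2a4, Fgd2, Pced1b, S100a10 and 1110038B12Rik, at distances of 0.02 to 0.06. The closest, Slc2a4, which encodes the insulin-responsive glucose transporter GLUT4, was at 34.9, 49.4 and 48.8 CPM in vehicle and at 32.7 and 31.9 CPM in DMXAA. With 5 libraries and 16225 genes compared, this likeness is a description only.

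Nfkbia, which encodes IkBa, lies on chromosome 12 from 55489410 to 55492647. It was at 49.4, 47.9 and 51.6 CPM in vehicle and at 51.0 and 44.1 CPM in DMXAA. The groups overlapped, with DMXAA library 2 lowest and DMXAA library 1 second highest. The log2 fold change was -0.06 (SE 0.10, adjusted p = 0.898), and its 95% interval, the narrowest of the 10 on the log2 scale, spans 0.81 to 1.13 times the vehicle level. It was 0.04 without DMXAA library 2. Within each library the ratio of Nfkbia to Rela counts, which no scaling between libraries can move, was 1.36, 1.34 and 1.24 in vehicle and 1.53 and 1.38 in DMXAA, so that both DMXAA ratios were higher, library 2 by little. This ratio was chosen after the values were seen and was not tested.

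Tnfaip3 lies on chromosome 10 from 19000910 to 19015657. It was at 8.70, 12.3 and 13.3 CPM in vehicle and at 11.1 and 7.41 CPM in DMXAA. The groups overlapped, and each held 1 library below 9 CPM. The log2 fold change of -0.30 (SE 0.25, adjusted p = 0.811) was -0.62 without DMXAA library 1 and -0.04 without DMXAA library 2.

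Bcl3 encodes a nuclear IkB family protein that binds p50 and p52 dimers at DNA. It was at 5.35, 15.4 and 8.26 CPM in vehicle and at 8.43 and 7.01 CPM in DMXAA. Vehicle library 2 stood far above the other 4, and the groups overlapped. The same library was the highest of the vehicle group in Irf7 (192.6 CPM, given above) and the highest of all 5 in the NF-kB and interferon target genes Irf1 (vehicle 26.9, 88.5 and 25.9 CPM, DMXAA 39.4 and 30.2 CPM) and Cxcl10 (5.19, 48.15 and 11.3 CPM, and 22.5 and 14.5 CPM). Irf1 and Cxcl10 were picked once their values were known. In Rsad2 and Ifi44 (given above) and in Ccl5 (given below), vehicle library 2 lay between the other vehicle libraries. The part of this library's difference in the NF-kB values was not tested. For Bcl3 the log2 fold change of -0.32 (SE 0.42, adjusted p = 0.873) had a 95% interval from -1.32 to 0.68, the widest of the 10. Without vehicle library 2 the estimate was 0.18, and without vehicle library 1 it was -0.62. An antisense gene, Gm16175, shares 6.51% of the exonic bases of Bcl3.

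Birc3 lies on chromosome 9 from 7848699 to 7873186. Its product cIAP2 adds ubiquitin chains at the TNF receptor complex and, with its relative cIAP1, keeps the kinase of the non-canonical pathway low. It was at 13.9, 12.2 and 14.7 CPM in vehicle and at 15.9 and 16.8 CPM in DMXAA. Both DMXAA libraries were above all vehicle libraries, by a gap of 1.12 CPM. The log2 fold change was 0.26 (SE 0.13, 95% interval -0.06 to 0.58, adjusted p = 0.750), and it stayed between 0.19 and 0.32 without each library in turn. Birc2, which encodes cIAP1, was at 43.8, 40.0 and 35.7 CPM in vehicle and at 40.7 and 39.3 CPM in DMXAA, a log2 fold change of 0.0066. Birc2 was named after its values were seen.

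**Figure D3:**
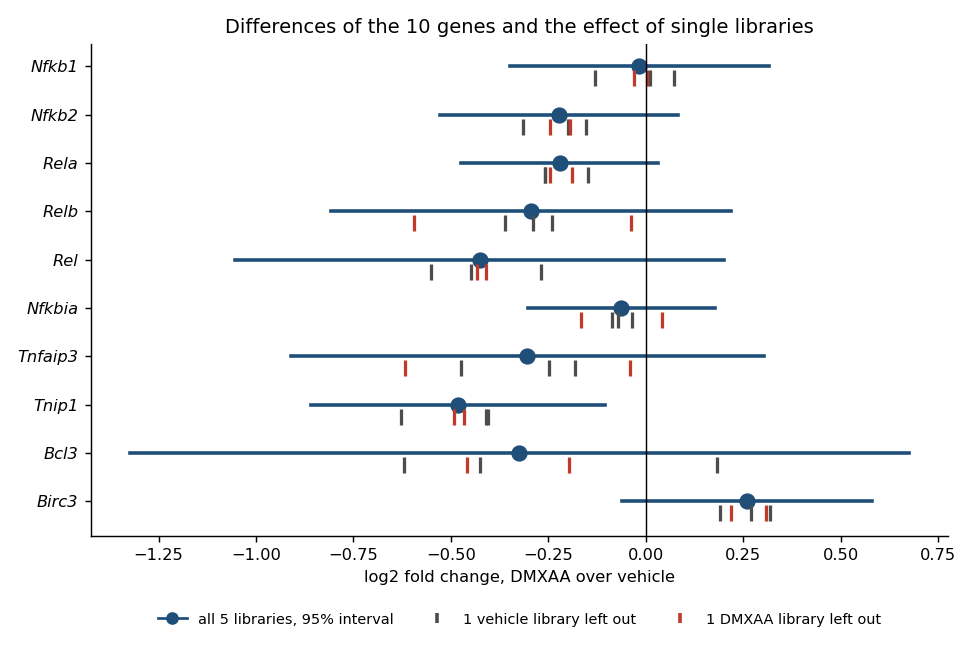
Log2 fold change (horizontal axis, DMXAA over vehicle) of each of the 10 genes with all 5 libraries (blue point, with its 95% interval as a line) and with 1 vehicle (grey tick) or 1 DMXAA (red tick) library left out. The intervals of 9 genes include 0, that of Tnip1 runs from -0.86 to -0.10 before adjustment over all genes, and the estimate of Bcl3 changes sign without 1 vehicle library.

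The 10 genes did not move as a block within the groups. The median of their deviations from each gene's own mean in log2 CPM was -0.03, 0.07 and 0.14 in vehicle libraries 1 to 3, against 0.02 in DMXAA library 1 and -0.19 in DMXAA library 2. DMXAA library 2 was thus the low one, and it held the lowest value of 5 of the 10 genes, while DMXAA library 1 lay between the vehicle libraries. The median log2 fold change of -0.26 was -0.11 without DMXAA library 2, -0.33 without DMXAA library 1 and -0.17 without vehicle library 3. The same library, DMXAA library 2, had the lowest summed B cell and T and NK cell markers (6.47 and 6.77 CPM). It was also the lowest in dendritic cell and red cell markers (7.96 and 26.4 CPM). In proximal tubule, podocyte and endothelial markers it was the highest (7378, 381 and 306 CPM). The part of these cell differences was not tested.

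The bases before the transcription start are shown for the 5 genes whose groups did not overlap and for Nfkbia, since NF-kB binds kB sites and several of these genes are textbook targets of it. RefSeq windows on GRCm38.p6 (the assembly of mm10) matched 8 of the 10 genes with 11 windows, and none was matched for Nfkb1 and Relb. In the 250 bases before each start, the kB consensus was searched on both strands, with overlapping matches merged. It was present in 7 of the 11 windows and in 5 of the 8 genes (Nfkb2, Rel, Nfkbia, Tnfaip3 and Tnip1), against 3.90% of all 32851 windows. The shorter motif GGGNNTTTC, which can overlap the consensus, was present in 5 of the 8 genes. It was present in 3.72% of all windows, a share per window and not per gene. Capitals mark consensus matches on either strand, each sequence is printed 5′ to 3′ on the strand of its gene, and a match is not evidence of a bound site.
Tnip1, minus strand, chr11:54962941-54963190, has 1 place with the consensus, starting 58 bases before the start.
Tnip1: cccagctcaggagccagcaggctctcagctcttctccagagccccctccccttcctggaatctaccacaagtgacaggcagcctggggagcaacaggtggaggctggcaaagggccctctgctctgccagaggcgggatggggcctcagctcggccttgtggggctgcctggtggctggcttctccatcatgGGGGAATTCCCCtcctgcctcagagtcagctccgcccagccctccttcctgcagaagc
Nfkb2, plus strand, chr19:46304487-46304736, the most upstream of its 3 windows, has 2 places, starting 39 and 11 bases before the start.
Nfkb2: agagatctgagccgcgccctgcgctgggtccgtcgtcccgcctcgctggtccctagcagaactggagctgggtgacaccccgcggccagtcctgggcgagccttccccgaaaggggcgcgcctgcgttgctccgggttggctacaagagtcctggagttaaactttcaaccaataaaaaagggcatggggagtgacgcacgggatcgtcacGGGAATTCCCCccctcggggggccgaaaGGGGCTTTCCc
Rel, minus strand, chr11:23770970-23771219, has 1 place, starting 92 bases before the start.
Rel: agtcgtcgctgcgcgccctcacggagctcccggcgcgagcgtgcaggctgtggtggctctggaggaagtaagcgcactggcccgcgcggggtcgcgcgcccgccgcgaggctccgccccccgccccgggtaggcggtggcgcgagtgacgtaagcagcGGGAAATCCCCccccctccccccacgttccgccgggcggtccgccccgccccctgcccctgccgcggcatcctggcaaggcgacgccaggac
Nfkbia, minus strand, chr12:55492648-55492897, has 1 place, starting 29 bases before the start.
Nfkbia: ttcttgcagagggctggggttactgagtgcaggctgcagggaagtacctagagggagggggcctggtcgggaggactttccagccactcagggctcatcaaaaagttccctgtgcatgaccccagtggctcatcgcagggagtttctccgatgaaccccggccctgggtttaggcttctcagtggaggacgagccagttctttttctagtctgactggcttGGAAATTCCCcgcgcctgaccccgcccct
Rela, plus strand, chr19:5637291-5637540, has no consensus match in this window and 1 match of the shorter motif on the other strand.
Rela: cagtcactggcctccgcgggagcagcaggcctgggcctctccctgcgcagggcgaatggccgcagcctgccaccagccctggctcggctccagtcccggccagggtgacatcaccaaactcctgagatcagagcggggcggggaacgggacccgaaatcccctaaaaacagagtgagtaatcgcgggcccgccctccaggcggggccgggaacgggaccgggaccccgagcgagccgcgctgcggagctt
Birc3, minus strand, chr9:7873171-7873420, has no match of either motif in this window.
Birc3: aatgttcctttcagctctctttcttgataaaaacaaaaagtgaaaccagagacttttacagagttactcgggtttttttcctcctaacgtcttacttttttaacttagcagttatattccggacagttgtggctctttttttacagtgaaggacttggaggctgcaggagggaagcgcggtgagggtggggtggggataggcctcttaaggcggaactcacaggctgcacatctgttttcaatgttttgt

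Set beside the values, the windows with a consensus match belonged to genes with lower estimates in DMXAA (Tnip1, Nfkb2, Rel and Tnfaip3) as well as to Nfkbia, whose estimate was near 0. Of the 3 genes whose windows held no consensus match, Rela (-0.22) and Bcl3 (-0.32) also had lower estimates, and Birc3 (0.26) a higher one, so lower estimates occurred with and without a match.

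The rest of the pathway was described with 4 lists, upstream to downstream. Of 20 receptors and ligands, 14 passed the filter, 10 of these had estimates below 0, and the median log2 fold change was -0.17. At an unadjusted p below 0.05, 1 was lower (against 2.65% of tested genes) and 0 were higher (against 3.89%), and edgeR called none after adjustment. Lymphotoxin beta (Ltb), a ligand of the non-canonical pathway made by lymphocytes, was at 2.11, 1.65 and 1.77 CPM in vehicle and at 0.94 and 0.60 CPM in DMXAA. The groups did not overlap (log2 fold change -1.26, SE 0.37, edgeR adjusted p = 0.724), and the B cell markers given above were also lower in the mean. Interleukin-1 beta (Il1b), a cytokine of myeloid cells, was at 1.30, 1.76 and 3.11 CPM in vehicle and at 1.39 and 0.85 CPM in DMXAA, which overlap. The TNF receptor gene Tnfrsf1a was at 71.2, 83.9 and 92.7 CPM in vehicle and at 74.9 and 70.9 CPM in DMXAA, and the B cell survival factor gene Tnfsf13b at 3.46, 3.41 and 3.00 CPM and at 3.05 and 2.09 CPM. Both overlapped. Tnf itself did not pass the filter, with at most 0.45 CPM in any library.

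Of 24 adaptors and kinases, all 24 were tested, 14 had estimates above 0, the median was 0.05 and none was called. The ubiquitin ligase gene Traf6, which links interleukin-1 and Toll-like receptors to the kinases, was the only one with an unadjusted p below 0.05 (1 of 24 higher and 0 lower, against 3.89% and 2.65% of tested genes). Traf6 was at 38.2, 37.0 and 39.2 CPM in vehicle and at 46.9 and 45.2 CPM in DMXAA, above all vehicle libraries (log2 fold change 0.27, SE 0.09, edgeR adjusted p = 0.724). Irak1, a kinase of the same receptors, was at 104, 108 and 100 CPM and at 117 and 117 CPM, also higher in both DMXAA libraries. Its relative Irak2 was at 35.6, 37.7 and 34.7 CPM and at 32.1 and 31.7 CPM, lower in both. Ripk1, a kinase of the TNF receptor complex, overlapped (37.8, 43.1 and 39.2 CPM, and 42.6 and 46.8 CPM).

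Of 18 other inhibitors, 17 were tested, 10 had estimates above 0, the median was 0.03 and none was called. The ubiquitin ligase gene Itch, whose product acts with A20, was at 112, 105 and 109 CPM in vehicle and at 121 and 136 CPM in DMXAA, the only one with an unadjusted p below 0.05 (log2 fold change 0.24, SE 0.09, edgeR adjusted p = 0.742). This made 1 of 17 higher and 0 lower, against 3.89% and 2.65% of tested genes. The deubiquitinase gene Cyld was also higher in both DMXAA libraries (67.3, 68.2 and 63.1 CPM, and 72.6 and 77.0 CPM). Tnip2, a relative of Tnip1, was lower in both (11.8, 13.5 and 11.3 CPM, and 10.5 and 9.25 CPM), with a log2 fold change of -0.30 (SE 0.16). The nuclear inhibitor gene Nfkbiz overlapped (12, 19.4 and 17.2 CPM, and 12.99 and 11.8 CPM).

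Of 26 target genes, 21 were tested, 14 had estimates below 0, the median was -0.18 and edgeR called none. At an unadjusted p below 0.05, 2 of the 21 were higher (against 3.89% of tested genes) and 1 was lower (against 2.65%). The chemokine gene Ccl5, which interferon also induces, was at 3.03, 4.04 and 4.05 CPM in vehicle and at 6.77 and 10.4 CPM in DMXAA. Both DMXAA libraries were higher, and the log2 fold change was 1.21 (SE 0.26), with an adjusted p of 0.629 in edgeR. DESeq2 called Ccl5 at an adjusted p of 0.0493. Cflar, an inhibitor of caspase activation, was at 174, 182 and 189 CPM and at 222 and 224 CPM, higher in both (log2 fold change 0.29, SE 0.09). The prostaglandin synthase gene Ptgs2 was at 4.16, 0.40 and 1.497 CPM and at 0.50 and 0.30 CPM, where vehicle library 1 was highest and the groups overlapped. Traf1, an adaptor that NF-kB induces, was at 2.87, 3.47 and 3.72 CPM and at 2.00 and 2.34 CPM, lower in both. Il6 had at most 0.06 CPM in any library.

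**Figure D4:**
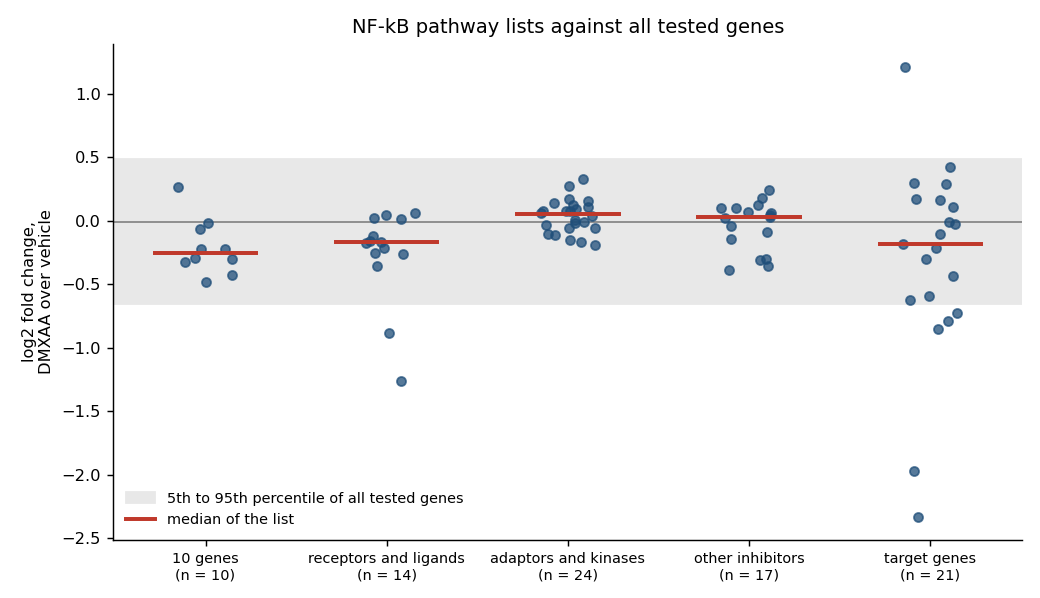
Log2 fold changes (vertical axis, DMXAA over vehicle) of the 10 genes and of the tested genes of 4 NF-kB pathway lists, 1 point per gene, with the median of each list in red and the range between the 5th and 95th percentile of all tested genes (-0.66 to 0.48) in grey. All 10 subunit and regulator genes lie inside the grey range, and the highest point among the targets is Ccl5 at 1.21.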

How the data were processed

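RNA was extracted from kidney with Trizol, and per the labels' protocols both a TruSeq and a NEBNext kit are named for library preparation. The authors deposited raw read counts per Ensembl gene ID, and the submitters' processing notes name HISAT2, featureCounts, Subread, DESeq2 1.16.1 and mm10. What each tool did, the annotation, strand use and multi-mapping reads are not stated in the sources used. By their names, the CO columns were read as vehicle and the XA columns as DMXAA, each with the replicate number in the name. GENCODE M21 gave symbols, positions and lengths for 99.9% of IDs.

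Counts were tested with edgeR 4.0.16 in R 4.3.3: default expression filter, TMM scaling, two-sided quasi-likelihood F test with group as the only term, and Benjamini-Hochberg adjustment over all 16226 genes, called below 0.05. CPM is TMM-normalised. The SE is the log2 fold change over the square root of F, and 95% intervals use the t distribution. The test was checked on simulated counts. It called 60 of 100 genes with a 2-fold change, 92 of 100 with a 4-fold change and 14 of 16026 unchanged genes. Changes smaller than 2-fold were not simulated. No pair of libraries agreed within counting noise (chi-square from 7.35 to 38.5 per degree of freedom). The labels do not say that samples came from separate mice, so p-values measure only the spread between these samples. Poisson intervals cover counting error only. The replicate numbers were not taken to pair the groups.

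Alternatives were DESeq2 1.42.0, RLE size factors, no filter, at least 1 CPM in 2 libraries, robust empirical Bayes, a replicate block, a length and GC correction, and leaving out each library. The unscaled CPM and TPM comparisons of overlap were chosen after seeing the data. The 10 genes, the pathway lists and the markers were chosen with earlier results of these data known. The text names all 10 genes, from each list the 4 tested genes lowest in unadjusted p, the 5 genes most similar to the one of the 10 with the smallest p, and the interferon genes Rsad2, Ifi44 and Irf7. Birc2, Tnf, Il6, Irf1, Cxcl10 and the marker genes given with values stand outside this rule and were chosen after their values were seen. Promoters are those of genes whose groups did not overlap and of Nfkbia. No protein sequences were used here.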

Additional observations from a re-analysis of the deposited data

How the results depend on the processing

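None of the 10 genes passed an adjusted p of 0.05 under any of the 12 alternatives (120 values, lowest adjusted p 0.20, for Tnip1 without vehicle library 1), and 6 of the 120 values changed sign. These were Nfkb1 with the replicate block (0.027) and without vehicle library 1, vehicle library 3 or DMXAA library 2 (-0.13 to 0.072 over all libraries left out), Nfkbia without DMXAA library 2 (-0.16 to 0.040 over all libraries left out) and Bcl3 without vehicle library 2 (-0.62 to 0.18 over all libraries left out). The median of the 10 genes ran from -0.33 to -0.11 over the libraries left out, and was -0.17 with the replicate block. Genes called by edgeR numbered 0, but 59 with DESeq2, 34 without an expression filter, 4 with the replicate block and 0 to 2 over the libraries left out, the 2 without vehicle library 1. The number of the 10 genes with groups that do not overlap was 5 (against 26.0% of tested genes), but 3 in TPM (25.1%), 4 without a filter (19.9%) and with the length and GC correction (25.4%), and 5 to 7 over the libraries left out, where 37.1% to 47.8% of tested genes did not overlap: 7 without vehicle library 1 (42.8%) or DMXAA library 1 (47.8%), 6 without vehicle library 2 (45.1%), and 5 without vehicle library 3 (37.1%) or DMXAA library 2 (42.8%). With 1 vehicle library left out, genes with an unadjusted p below 0.05 in edgeR ran from 1 to 5 among receptors and ligands. They ran from 1 to 2 among adaptors and kinases, from 0 to 2 among other inhibitors and from 4 to 7 among target genes. These ranges do not cover the fits without a DMXAA library, which rest on 1 DMXAA library and are not counted here. Over all tested genes the count was 1528 of 15869, 1893 of 16036 and 846 of 15973 without vehicle libraries 1, 2 and 3. In the main fit it was 1062 of 16226. With the replicate block there were 0 adaptors and kinases, 0 other inhibitors and 5 target genes (790 of 16226 over all tested genes). There were 0 other inhibitors without a filter (1604 of 28037) and with the length and GC correction (1053 of 16226). Target genes numbered 5 with DESeq2 (967 of 16226) and 6 without a filter. Same-numbered deviations from the group means correlated across genes at 0.07 and 0.08. Vehicle library 1 with DMXAA library 2 gave -0.07, and vehicle library 2 with DMXAA library 1 gave -0.08. The deviations of 2 DMXAA libraries mirror each other, so these values cannot decide whether the replicate numbers pair the groups. With 2 DMXAA libraries the 95% intervals stay wide, reaching -1.32 on the log2 scale for Bcl3, and Rel rests on 54 to 91 counts a library.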
